A study of Mus musculus with 58 samples.

Results

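Sez6l2 is one of the genes of the mouse interval that matches human 16p11.2, and one of the 3 genes that were mutated together in the 3g mouse line. Its family has 2 further members, Sez6 and Sez6l, which lie on other chromosomes and are intact in both lines. All 3 genes were taken by symbol and gene identifier. Each was found once in every count table, so they are 3 of the 54532 genes counted by RNA-seq and 3 of the 18411 genes counted in the ribosome profiling experiment. They were followed in the striatum, the forebrain region that was dissected, by asking how far Sez6l2 RNA and its ribosome footprints were lowered in each line and whether either paralog was higher where Sez6l2 was lower.

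The family members are single-pass neuronal membrane proteins whose outer part carries CUB domains and sushi (complement control) repeats. SEZ6 and SEZ6L are known substrates of the protease BACE1, which releases their outer part. The family is known for roles in dendrite growth and synapse formation and in limiting complement at synapses, and its members have overlapping functions.

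3g del/+ mice carry CRISPR/Cas9 changes in 1 copy each of Taok2, Sez6l2 and Mvp, designed to give a premature stop codon and decay of the transcript, and the number of founders behind the line was not given in the sources used here. 16p11.2 del/+ mice, bought from The Jackson Laboratory, lack 1 copy of the whole interval. Each line had its own wild-type (wt) littermates, all animals were labelled B6129S, and the study's stated age was 10 to 14 weeks. RNA-seq of whole tissue covered 4 male and 4 female del/+ and as many wt mice of each line, in 32 libraries. A second set of males was used for ribosome profiling, in which the stretches of mRNA covered by ribosomes (footprints) are sequenced beside the RNA of the same lysate: 3 del/+ and 3 wt mice of the 3g line, and 3 del/+ and 4 wt mice of the 16p11.2 line. Library totals ran from 11711099 to 65529807 counts in RNA-seq, from 15102576 to 19122488 in lysate RNA and from 342052 to 678130 in footprints, so footprint values carry the largest counting error. Expression levels are in CPM, that is, counts brought to a common library size within each assay, with no correction for gene length, so no level is compared between genes.

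In mm10 (GRCm38.p6) coordinates, Sez6l2 (ENSMUSG00000030683) spans chr7:126950495-126970610, Sez6 (ENSMUSG00000000632) spans chr11:77930587-77979052 and Sez6l (ENSMUSG00000058153) spans chr5:112419151-112578535. Taok2 at chr7:126865674-126886296 and Mvp at chr7:126986860-127014594 flank Sez6l2 on either side. The predicted genes Gm6588 and Gm42160 lie inside the Sez6l span, and whether they share reads with Sez6l was not examined.

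Striatal identity was plain in all 32 RNA-seq libraries, with all 12 projection neuron markers above 0 and summed levels between 4979 and 9158 CPM. The summed level of 10 cortical excitatory neuron markers was 1004 to 1694 CPM in the 16p11.2 line and 292 to 881 CPM in the 3g line, apart from 3g wt male 17 at 1148 CPM. That library, and 16p11.2 del/+ male 4, lay apart from their own line: on a scale on which the wt females of the 3g line average 0 and those of the 16p11.2 line average 1, they stood at 0.849 and 0.211. The library labelled 16p11.2 del/+ female 1 held Y-linked Ddx3y at 38.5 CPM and Xist at 0.462 CPM, against 0 and 326 to 916 CPM in the other 3 libraries of its group. Genotype and line differences of the members are also given without these 3 libraries. In bulk tissue, fewer cells that express a gene and less RNA per cell cannot be told apart.

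Sez6l2 was lower in del/+ than in wt mice in all 8 genotype comparisons, and in each the highest del/+ library lay below the lowest wt library. Counts are per gene, so in 3g mice they pool any transcripts left from the mutated copy with those of the intact copy. Sez6l2 RNA stood near 70% of wt in the 3g line and near 40% in the 16p11.2 line. The change passed an adjusted p of 0.05 over all tested genes in 4 of the 8 comparisons, by the quasi-likelihood test of edgeR: RNA-seq of 3g females, RNA-seq of both sexes of the 16p11.2 line, and lysate RNA of 16p11.2 males. Neither paralog passed in any of the 8.

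In RNA-seq of 3g males, Sez6l2 was at 189, 205, 202 and 225 CPM in del/+ mice and at 336, 312, 274 and 305 CPM in wt mice. The groups did not overlap, with wt male 17 the highest. The del/+ level was 67.4% of wt (log2 fold change -0.57, 95% interval -0.76 to -0.38), and of 19081 genes tested it had the smallest p, but the p adjusted over all of them was 0.807 (edgeR). The exact permutation test of this gene alone gave a two-sided p of 0.0286, the smallest that 4 against 4 can give. Of all genes tested, 1.02% had del/+ libraries entirely below wt libraries, 0% were called lower and 1.44% had an unadjusted p under 0.05. Without wt male 17 the fold change was -0.53 with an adjusted p of 0.142.

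In 3g females, Sez6l2 was at 213, 198, 209 and 195 CPM in del/+ mice against 277, 281, 278 and 306 CPM in wt mice. The groups did not overlap, and the spread within them was the narrowest of the 4 RNA-seq comparisons (SD 8.69 and 13.9 CPM, n = 4 each). Library totals were apart as well, at 24332636 to 36821127 counts in del/+ and 42289823 to 65529807 in wt females. Sez6l2 fell by 0.49 on the log2 scale (SE 0.04, adjusted p = 0.00336, edgeR), to 71.1% of wt, and was the single gene called of 19024, or 0.00526%. Groups did not overlap, with del/+ lower, for 3.2% of genes, and 11% had an unadjusted p under 0.05. The interneuron and choroid plexus marker sums were apart between genotypes in these females. The 7 interneuron markers summed to 242 to 269 CPM in del/+ and 223 to 231 CPM in wt, and the 6 choroid plexus markers to 3.95 to 5.64 CPM and 7.55 to 16.8 CPM. Among the interneuron markers, Th was lower in del/+ (log2 fold change -0.14), and no marker was called. The share of unrelated gene sums that were apart was not computed. The cortical sum was 397 to 881 CPM in del/+ and 376 to 797 CPM in wt females. The projection neuron, astrocyte, oligodendrocyte, microglia and endothelial sums also overlapped between genotypes. All 7 interneuron markers were above 0 in every library, as were 4 of the 6 choroid plexus markers in del/+ and 6 in wt. Their part in this result was not tested.

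**Figure D1:**
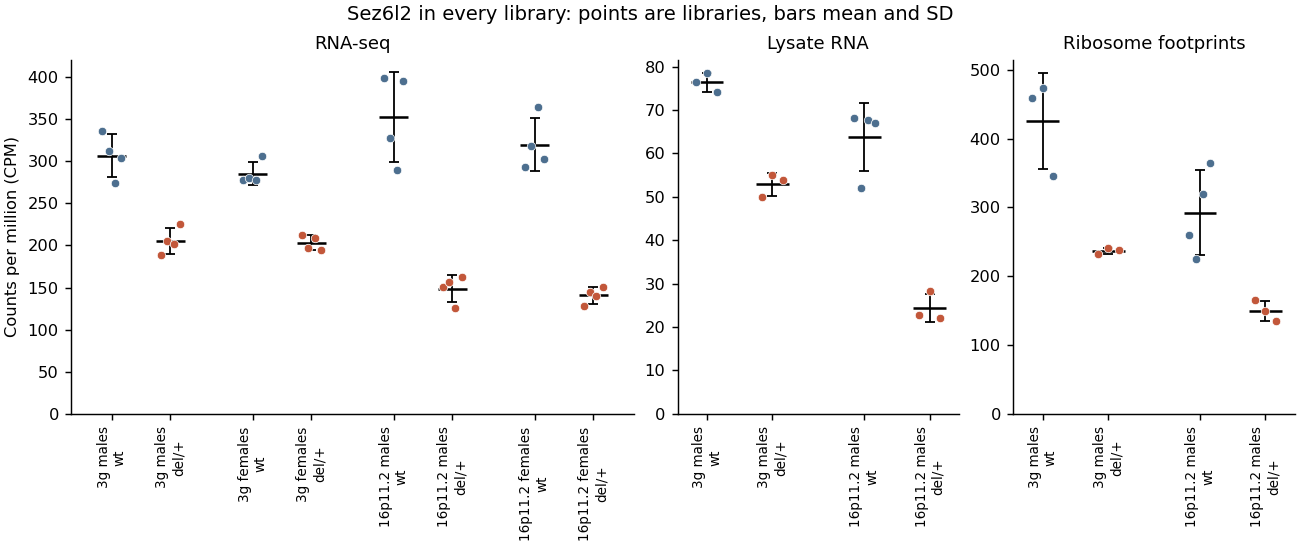
Sez6l2 level (CPM, y axis) in every library of RNA-seq, lysate RNA and ribosome footprints, by line, sex and genotype. Points are libraries (blue wt, orange del/+), lines and bars the mean and SD. All del/+ libraries lie below all wt libraries of their line, sex and assay, and RNA-seq means are 203 to 205 CPM in 3g del/+ and 141 to 148 CPM in 16p11.2 del/+ mice.

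In RNA-seq of 16p11.2 males, Sez6l2 was at 150, 156, 126 and 162 CPM in del/+ mice and at 399, 327, 289 and 395 CPM in wt mice. The groups did not overlap. Sez6l2 fell by 1.24 on the log2 scale (SE 0.13, adjusted p = 0.00162, edgeR), to 42.3% of wt (95% interval 34.7 to 51.4%). Genes called lower were 0.0947% of those tested, 2.12% had del/+ libraries all below wt, and 5.82% had an unadjusted p under 0.05. Without del/+ male 4 the fold change was -1.29 (adjusted p = 0.00425).

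In 16p11.2 females, the levels were 128, 144, 140 and 151 CPM in del/+ against 293, 317.7, 364 and 303.1 CPM in wt mice, again apart. Sez6l2 fell by 1.19 (SE 0.09, adjusted p = 4.06e-05, edgeR), to 43.9% of wt (95% interval 38.5 to 50.1%). Here 0.111% of genes were called lower, 1.7% had del/+ libraries entirely below wt, and 4.47% had an unadjusted p under 0.05. Without the library labelled del/+ female 1, the lowest of the del/+ group, the fold change was -1.15 (adjusted p = 0.000212).

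Ordered by mean RNA-seq level, the 8 groups fell into 3 tiers. The 4 wt groups came first at 353, 320, 306 and 285 CPM, and each of these overlapped its neighbour in the order. The 3g del/+ groups followed at 205 CPM (males) and 203 CPM (females), and the 16p11.2 del/+ groups at 148 and 141 CPM. Libraries overlapped within each tier and not between neighbouring tiers. The lines were separate sets of libraries, so a level set across them cannot be told apart from their batch.

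A separate set of males was used for ribosome profiling. In lysate RNA of 3g males, Sez6l2 was at 49.9, 55.0 and 53.9 CPM in del/+ and 76.5, 78.6 and 74.2 CPM in wt mice. The groups were apart, at 69.5% of wt (log2 fold change -0.53, 95% interval -0.73 to -0.32), and the adjusted p was 0.109 (edgeR). With 3 against 3, the exact permutation test gave its smallest possible p, 0.1, and 5.41% of genes had del/+ libraries entirely below wt, 0.0139% were called lower and 4.92% had an unadjusted p under 0.05.

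In lysate RNA of 16p11.2 males, the levels were 22.9, 28.2 and 22.1 CPM in del/+ against 68.2, 52.1, 67.7 and 67.0 CPM in wt mice. The wt mouse at 52.1 CPM stood below its group, yet above every del/+ mouse. Sez6l2 fell by 1.38 (SE 0.13, adjusted p = 0.000983, edgeR), to 38.4% of wt, with a 95% interval of 31.6 to 46.7% that lay wholly below 50%. This was the only one of the 8 comparisons whose interval did. Genes called lower were 0.126% of those tested, 2.63% had del/+ libraries entirely below wt, and 4.41% had an unadjusted p under 0.05.

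Footprints of Sez6l2, which count ribosomes on its message from either copy, were also lower. In 3g males they were at 232, 241 and 237 CPM in del/+ and 460, 473 and 346 CPM in wt mice, from 122 to 205 counts per library. The del/+ level was 55.5% of wt (95% interval 40.0 to 77.1%), with an adjusted p of 0.399 (edgeR). Del/+ libraries lay entirely below wt for 6.42% of genes, 0.0132% were called lower and 7.97% had an unadjusted p under 0.05. The 3 del/+ mice differed by far less (SD 4.65 CPM) than the 3 wt mice (SD 70.0 CPM). Counting error alone is larger than 4.65 CPM at these counts, so that SD is not read as a trait of del/+ mice. Library totals were 527917 to 678130 counts in del/+ and 342052 to 422918 in wt mice, so depth went with genotype here.

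In 16p11.2 males, footprints were at 165, 149 and 135 CPM in del/+ and 259, 225, 319.4 and 365 CPM in wt mice, from 41 to 180 counts per library. The del/+ level was 51.0% of wt (95% interval 37.4 to 69.6%), and the adjusted p was 0.0671 (edgeR). With 1 mouse left out it ran from 0.0214, without the wt mouse that was lowest in its group, to 0.37. The exact permutation p was 0.0571, the smallest that 3 against 4 can give. Genes called lower were 0.0503% of those tested, 3.22% had del/+ libraries entirely below wt, and 6.15% had an unadjusted p under 0.05.

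**Figure D2:**
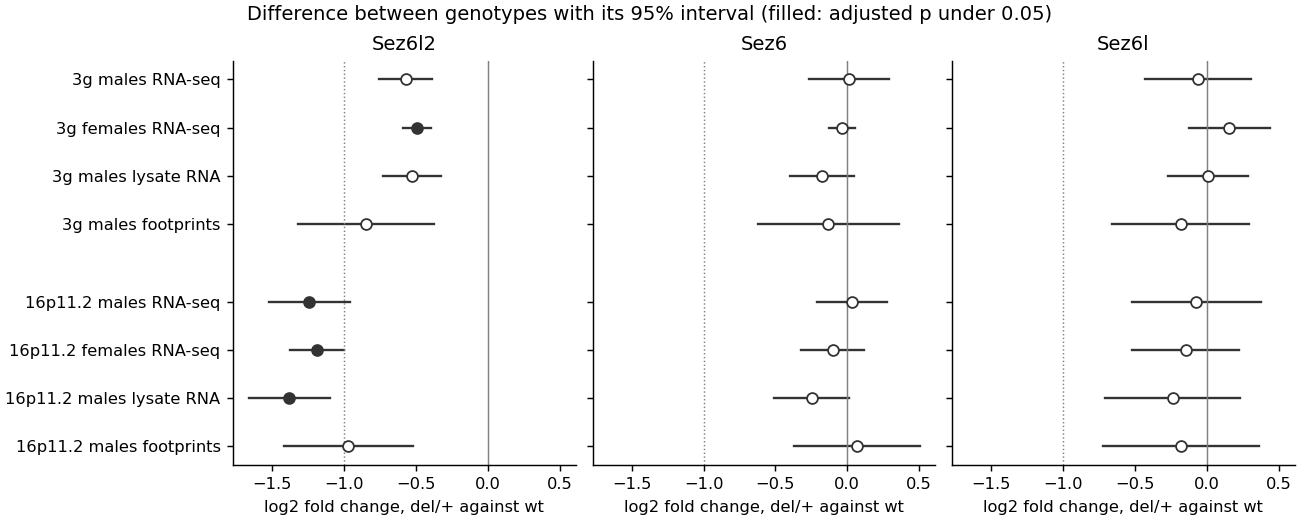
Log2 fold change of del/+ against wt (x axis) with its 95% interval for Sez6l2, Sez6 and Sez6l in the 8 genotype comparisons (rows). Filled points passed an adjusted p of 0.05, and the dotted line marks a level of 50% of wt. Sez6l2 lies between -1.38 and -0.49 in all 8, and every interval of Sez6 and Sez6l includes 0.

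The deletion and the null mutation were then compared as differences of their fold changes. Because 3g counts can hold transcripts of the mutated copy, these differences do not measure intact Sez6l2 transcripts alone. In females the Sez6l2 fold change was lower in the 16p11.2 line by 0.69 on the log2 scale (95% interval of the difference -0.90 to -0.49, adjusted p = 0.00147, edgeR), where 0.128% of genes were called. Without the library labelled 16p11.2 del/+ female 1 it was -0.65 (adjusted p = 0.00355). In lysate RNA of males the difference was -0.85 (95% interval -1.19 to -0.52, adjusted p = 0.0408), where 0.122% of genes were called, and leaving out 1 library at a time lost the call for 11 of the 13 libraries. In RNA-seq of males it was -0.67 (95% interval -0.999 to -0.34) with an adjusted p of 0.607, where 0.077% of genes were called, and -0.71 without either 3g wt male 17 or 16p11.2 del/+ male 4.

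Footprints did not show this difference: the fold changes of the lines differed by -0.12 (95% interval -0.74 to 0.50, adjusted p = 0.944), where 0.169% of genes were called. Between the sexes, the Sez6l2 fold change differed by 0.09 in the 3g line (95% interval -0.11 to 0.28, adjusted p = 0.901) and by 0.06 in the 16p11.2 line (95% interval -0.27 to 0.39, adjusted p = 0.954). No gene was called for a difference between the sexes in either line (0% of genes, with 2.69% and 4.33% at an unadjusted p under 0.05, edgeR), and DESeq2 called 0 and 3. For Sez6 the difference was -0.05 and -0.13, and for Sez6l 0.23 and -0.07. In the 16p11.2 line the Sez6l2 difference was 0.10 without the library labelled del/+ female 1 and 0.12 without del/+ male 4. Without 3g wt male 17 the differences of that line were 0.04 for Sez6l2, 0.063 for Sez6 and 0.066 for Sez6l. The Sez6l difference of the 16p11.2 line was -0.19 without the library labelled female and 0.032 without male 4.

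Taok2, a kinase gene, and Mvp, the gene of the major vault protein, are the other targets of the 3g line. The study verified the edits by DNA sequencing and reported lower striatal mRNA of each of the 3 targets by qPCR. Counts per gene pool transcripts of the mutated and the intact copy, so they do not show whether a copy was mutated. Taok2 was at 156, 174, 175 and 197 CPM in 3g del/+ males and at 178, 176, 182 and 182 CPM in wt males, and its fold changes in the 4 comparisons of that line ran from -0.15 to -0.02, none past the test. In the 16p11.2 line Taok2 ran from -1.06 to -0.98 and passed in 3 of 4. Mvp fold changes in the 3g line were -0.37 in RNA-seq of males (adjusted p = 0.974, edgeR) and -0.07 in lysate RNA (adjusted p = 0.987), with overlapping groups in both. Mvp was at 6.31, 5.87, 6.01 and 6.29 CPM in 3g del/+ females and at 8.22, 8.62, 8.48 and 8.84 CPM in wt females, groups that did not overlap (log2 fold change -0.48, adjusted p = 0.0663, edgeR). In 16p11.2 RNA-seq Mvp fell by 1.01 in males (adjusted p = 0.038), a call lost when any 1 library was left out (0.0586 to 0.226), and by 1.09 in females (adjusted p = 0.025, or 0.0151 to 0.109 with 1 library left out). Mvp footprints were between 0 and 7 counts per library and were not tested.

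Among the listed genes of the 16p11.2 interval, Sez6l2 was among the lower in RNA and not in footprints. The list may leave out deleted genes, since the ends of the deletion were not examined. Of 21 interval genes tested in RNA-seq of males, the other 20 had a median log2 fold change of -1.04 and Sez6l2 ranked 2 from the lowest, between Gdpd3 at -1.49 (adjusted p = 0.742) and Kctd13 at -1.24. In females it ranked 2 of 21, between Hirip3 at -1.24 and Asphd1 at -1.15, with the others at a median of -1.06. In lysate RNA it ranked 3 of 21, between Doc2a at -1.43 (adjusted p = 0.628) and Ppp4c at -1.37. In footprints it ranked 9 of 10, between Taok2 at -0.98 and Ypel3 at -0.68, with the others at -1.10. These ranks carry no test, and the 95% interval of Sez6l2 included the others' median in RNA-seq and footprints but not in lysate RNA.

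**Figure D3:**
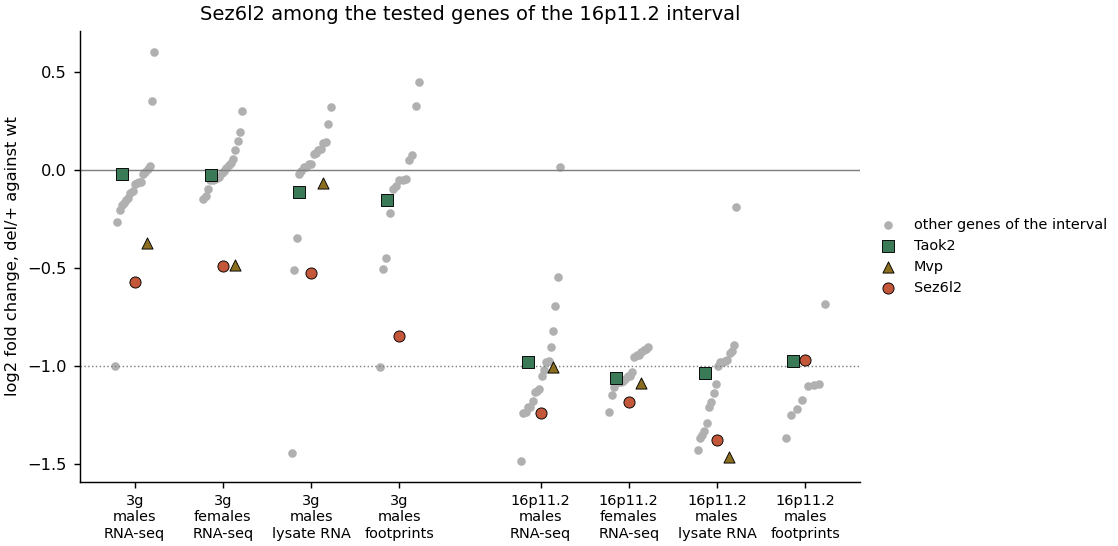
Log2 fold change of del/+ against wt (y axis) for every tested gene on the list of 16p11.2 interval genes, in each genotype comparison (x axis). Sez6l2, Taok2 and Mvp are marked, other genes are grey, and the dotted line marks 50% of wt. In the 3g line Sez6l2 stands at -0.85 to -0.49 with medians of the others between -0.07 and 0.03; in the 16p11.2 line the medians of the others lie between -1.10 and -1.04.

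In the 3g line, the interval genes other than the 3 targets gave a background for Sez6l2. Their medians were -0.07 in RNA-seq of males, -0.01 in females, 0.03 in lysate RNA and -0.05 in footprints. Among all tested interval genes, Sez6l2 was the lowest of 21 in females, with Mvp next at -0.48, and number 2 in the other comparisons. Below it there stood Qprt at -0.999 in RNA-seq of males (SE 0.57, adjusted p = 0.974), Gdpd3 at -1.45 in lysate RNA (SE 0.56, adjusted p = 0.94) and Ino80e at -1.01 in footprints (SE 0.33, adjusted p = 0.414), each with a larger standard error than Sez6l2.

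Sez6, the founding member of the family, was close to wt in RNA-seq of both lines. It was at 811, 736, 734 and 825 CPM in 3g del/+ males against 587, 787, 898 and 819 CPM in wt males, with the low wt value in male 17. In 3g females it was at 804, 788, 781 and 826 CPM against 838, 857, 823 and 763 CPM. In 16p11.2 males it was at 641, 508, 582 and 542 CPM in del/+ against 592, 571, 586 and 480 CPM in wt mice, and in females at 570, 627, 671 and 589 CPM against 622, 724, 553 and 732 CPM.

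Genotypes overlapped in all 4 of these comparisons. The narrowest interval, in 3g females, put Sez6 at 91.4 to 104% of wt, and the widest, in 3g males, at 83.3 to 123% of wt. Without wt male 17, the 3g male fold change moved from 0.02 (adjusted p = 0.999) to -0.10, and the call did not change. Without del/+ male 4 it was 0.05 in 16p11.2 males, and without the library labelled del/+ female 1 it was -0.07 in females.

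In lysate RNA, the Sez6 means of del/+ mice lay below wt in both lines, with no call. Sez6 was at 260, 242 and 256 CPM in 3g del/+ and 267, 317 and 276 CPM in wt mice, groups that did not overlap, as for 5.41% of genes, at 88.5% of wt (95% interval 75.8 to 103%, adjusted p = 0.94, edgeR). In 16p11.2 males it was at 189, 184 and 242 CPM against 230, 249, 237 and 262 CPM, at 84.3% of wt (95% interval 70.4 to 101%, adjusted p = 0.99), with 1 del/+ mouse inside the wt range. Sez6 footprints were at 1023, 1020 and 1012 CPM in 3g del/+ and 1101, 1264 and 980 CPM in wt mice, and at 1410, 1119 and 1437 CPM in 16p11.2 del/+ and 972, 1635, 1133 and 1312 CPM in wt mice. These overlapped, with intervals of 64.9 to 128% and 77.2 to 142% of wt.

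Sez6l, the other paralog, varied widely between mice of one group. In RNA-seq it was at 59.9, 76.4, 69.2 and 82.9 CPM in 3g del/+ males and 100.1, 71.7, 54.1 and 78.0 CPM in wt males. In 3g females it was at 80.3, 93.9, 88.3 and 65.8 CPM in del/+ and 67.6, 65.3, 65.0 and 94.8 CPM in wt mice. The cortical marker sums of these female libraries were 740, 881, 696 and 397 CPM in del/+ and 418, 376, 382 and 797 CPM in wt mice. In each genotype the library highest in Sez6l was also highest in that sum, whose part was not tested. Both pairs of groups overlapped, and the female del/+ level was 112% of wt (95% interval 91.7 to 136%, adjusted p = 0.67, edgeR). With 1 library left out, that fold change of 0.16 ran from 0.09 without del/+ female 31 to 0.31 without wt female 39, the wt library highest in Sez6l (adjusted p = 0.109).

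In the 16p11.2 line, Sez6l was at 92.7, 136, 92.0 and 132 CPM in del/+ males and 111, 107, 89.8 and 170 CPM in wt males. In females it was at 113, 84.4, 72.9 and 97.6 CPM against 87.5, 82.9, 136 and 99.97 CPM, with overlap in both sexes. The intervals were 69.6 to 130% and 69.9 to 117% of wt. Without the libraries that stood apart, the Sez6l fold change was 0.09 in 3g males, -0.16 in 16p11.2 males and -0.26 in the females of that line, none of them called. Lysate RNA and footprints of Sez6l overlapped between genotypes in both lines, at 100.5% and 88.1% of wt in 3g males and 84.9% and 88.4% in 16p11.2 males. Over the 8 comparisons the fold changes of Sez6l ran from -0.24 to 0.16, and the highest upper bound was 136% of wt.

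**Figure D4:**
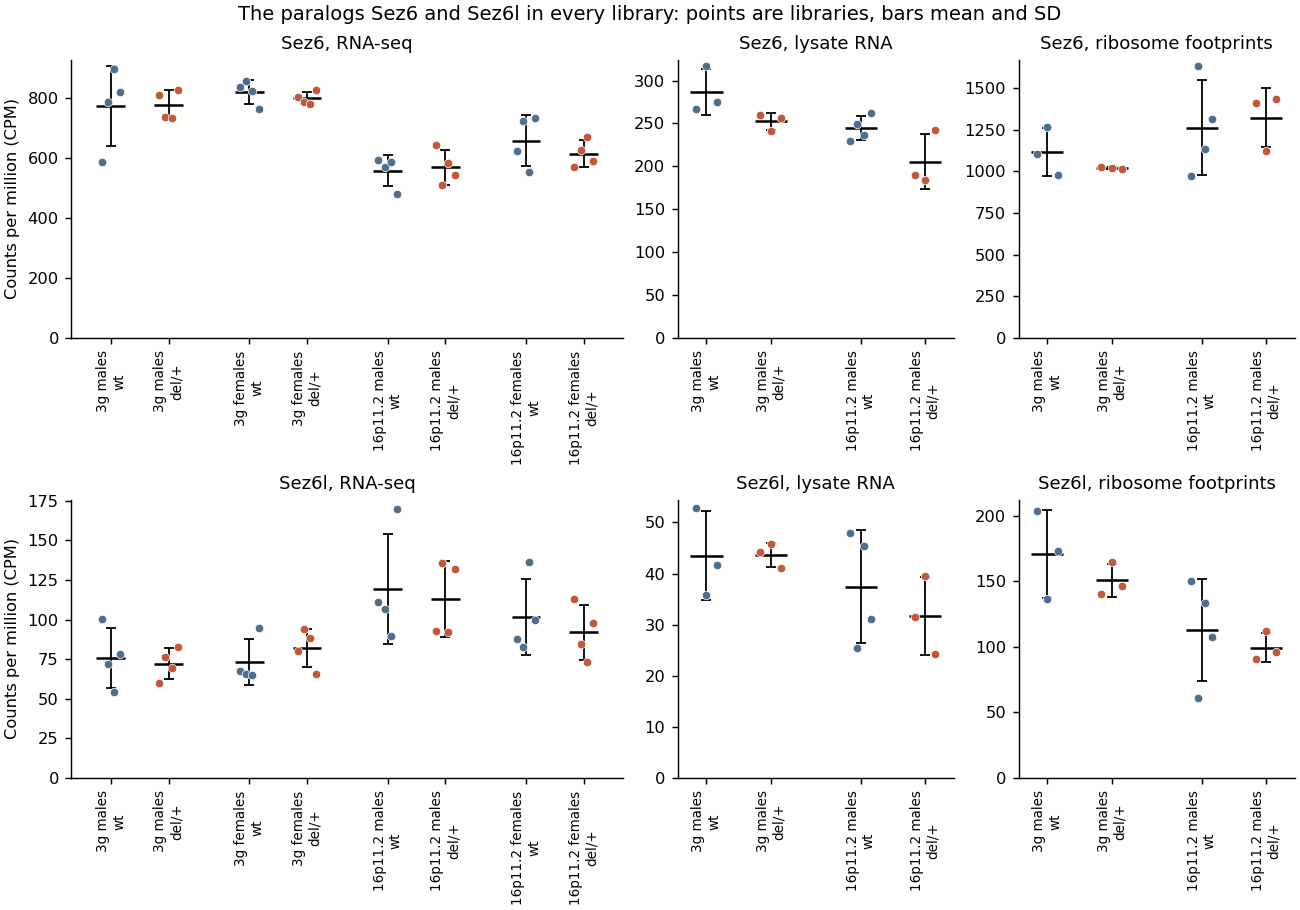
Levels (CPM, y axis) of Sez6 (top) and Sez6l (bottom) in every library of RNA-seq, lysate RNA and ribosome footprints, by line, sex and genotype. Points are libraries (blue wt, orange del/+), lines and bars the mean and SD. The genotypes overlap everywhere except Sez6 in lysate RNA of 3g males, where del/+ lies at 242 to 260 CPM and wt at 267 to 317 CPM.

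A ratio within each library, which no scaling between libraries can move, gave the same order. The log2 ratio of Sez6l2 to Sez6 counts, read only for its change between mice, was lower in every del/+ library than in every wt library in 8 of 8 comparisons. It reuses the Sez6l2 counts compared above, so it is not a separate result. The share of other genes whose ratio to Sez6 was apart was not computed. Its mean was -1.32 in wt and -1.92 in del/+ males of the 3g line by RNA-seq, and -1.52 and -1.98 in females. In the 16p11.2 line it was -0.67 and -1.94 in males and -1.04 and -2.13 in females. In lysate RNA it was -1.90 and -2.25 in the 3g line, the smallest of the 8 changes, and -1.95 and -3.07 in the 16p11.2 line. In footprints it was -1.39 and -2.11 in the 3g line and -2.11 and -3.14 in the 16p11.2 line.

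Footprints per RNA, the ratio of the footprint share to the lysate RNA share of the same mouse, describes how heavily a message is loaded with ribosomes. All 3 family members ranked high in this ratio, between the 77.6th and 95.5th percentile of 7692 genes in the 13 mice, and Sez6l2 was between the 90.8th and 95.5th. The ratio takes no account of which part of a gene each kind of read covers, so ranks between genes do not measure loading alone. The log2 ratio of Sez6l2 was 2.22, 2.14 and 2.14 in 3g del/+ mice and 2.59, 2.59 and 2.22 in wt mice. In the 16p11.2 line it was 2.86, 2.41 and 2.63 in del/+ and 1.94, 2.12, 2.24 and 2.45 in wt mice.

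The ratio of every 3g del/+ mouse was below that of every wt mouse, with the closest pair both at 2.22, and 6.8% of the 7692 genes were apart in that direction. In the 16p11.2 line the del/+ mice were mostly higher, and 1 wt mouse exceeded the lowest del/+ mouse. The genotype difference in this ratio was -0.29 in the 3g line (95% interval -0.73 to 0.15, adjusted p = 0.791, edgeR) and 0.32 in the 16p11.2 line (95% interval -0.19 to 0.83, adjusted p = 0.899). The difference between the lines in that genotype difference was 0.59 (95% interval -0.08 to 1.25, adjusted p = 0.65), a test that was added once the values had been seen. Sez6 differed by 0.08 and 0.23 and Sez6l by -0.15 and -0.02, and none passed the test. For Sez6l the value in the 16p11.2 line turned to 0.12 when library totals alone set the scale. Genes called were 0% in the 3g line, 0.00664% in the 16p11.2 line and 0.00612% between the lines.

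**Figure D5:**
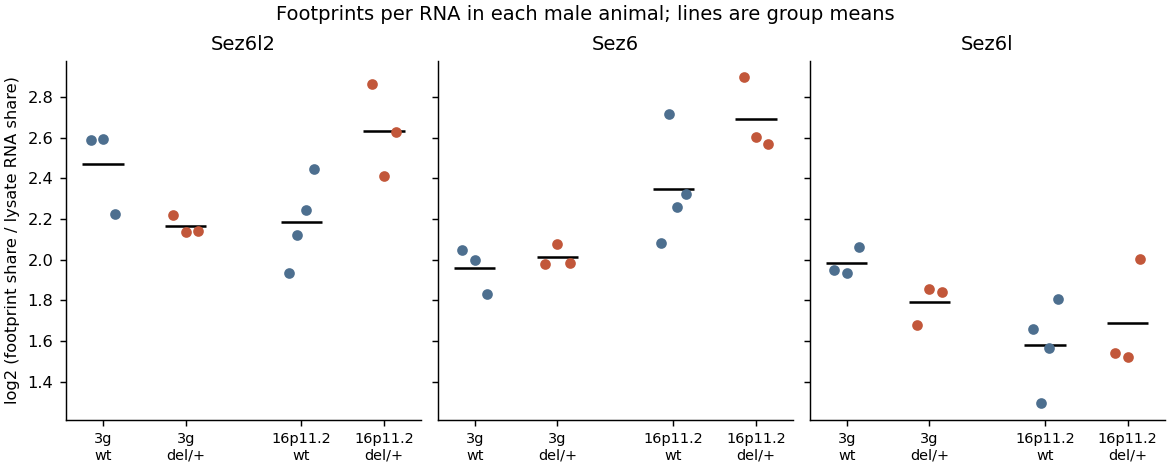
Log2 ratio of the footprint share to the lysate RNA share (y axis) in each male mouse, for Sez6l2, Sez6 and Sez6l, by line and genotype (blue wt, orange del/+). Lines are group means. Sez6l2 averages 2.47 in wt and 2.17 in del/+ mice of the 3g line, and 2.19 in wt and 2.63 in del/+ mice of the 16p11.2 line.

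Genes around the family's known biology were read from lists of 59 genes in 5 groups: BACE1 and related sheddases with gamma-secretase, other BACE1 substrates, binding and signalling partners, other genes with CUB and sushi domains, and complement. None passed the test in any of the 8 genotype comparisons by edgeR or DESeq2, and between 31 and 58 of the 59 could be tested. At an unadjusted p under 0.05 there were 1 to 5 per comparison, or 1.85 to 9.09% of those tested, against 1.44 to 11% of all genes. The share of list genes was above that of all genes in RNA-seq of 16p11.2 females (9.09% against 4.47%) and of 3g males (3.45% against 1.44%). In 3g females it was 6.90% of the list genes against 11% of all genes, and it was also below in the remaining comparisons. The median log2 fold change of the 59 lay between -0.15 and 0.03, against -0.01 to 0.00 for all genes tested.

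Bace1, the sheddase named above, had fold changes of 0.00 and 0.05 in RNA-seq of 3g males and females and -0.06 and -0.04 in the 16p11.2 line. In lysate RNA it was 0.05 in 3g and -0.26 in 16p11.2 males (adjusted p = 0.99). Bace2 ran from -0.06 to 0.35 in the 6 RNA comparisons and was too low in footprints to test. Ctsd, the lysosomal protease cathepsin D, ran from -0.18 to 0.17 over the 8.

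Of the partners, Gria1, an AMPA receptor subunit, ran from -0.13 to 0.20, and Grik2, a kainate receptor subunit, from -0.21 to 0.30, with the highest value in 16p11.2 males (adjusted p = 0.742, edgeR). The adducins, which cap actin at the membrane skeleton, ran from -0.10 to 0.22 for Add1, -0.11 to 0.06 for Add2 and -0.18 to 0.05 for Add3. Prss12, the synaptic protease neurotrypsin, ran from -0.79 (SE 0.64) to 0.68 (SE 0.47) over 7 comparisons, with a lowest adjusted p of 0.611 (edgeR). Of the 19 gene and comparison pairs at an unadjusted p under 0.05, 10 were complement genes, or 12.3% of the tests of that list of 15, and the other 4 lists had 1.22 to 4.82%. The list itself was not tested against other genes. C4b, a complement component, stood at -0.37 in 3g females (adjusted p = 0.338, edgeR), -0.48 in 16p11.2 females (adjusted p = 0.849) and -0.76 in 3g lysate RNA (adjusted p = 0.94). These 3 are named after their values were seen, and C4b in the other comparisons is not given here, so no direction is read from them.

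Which genes moved most like each member across the 32 RNA-seq libraries was described by Pearson correlation of log2 CPM, after each line and sex was centred on its mean, among 20342 genes. Libraries of one genotype share their alleles, so for Sez6l2 the genotype itself enters this measure. The nearest genes to Sez6l2 were Mvp (r = 0.93), Gm21984 (0.93), Kctd13 (0.91), Tbc1d10b (0.91) and Cd2bp2 (0.91). Mvp and Kctd13 are on the list of interval genes used here. Tbc1d10b and Cd2bp2 are not on it but also lie on chromosome 7, at chr7:127197459-127208468 and chr7:127191660-127196077. Whether the deletion also removes these genes was not examined.

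Sez6 was most like Rgs9 (r = 0.84), Chrm4 (0.81), Isl1 (0.80), Tbc1d8 (0.79) and Acy1 (0.78). Rgs9, a regulator of G protein signalling, is among the projection neuron markers used here. Sez6l was most like Apba2 (r = 0.92), Dnm1 (0.92), Tmem108 (0.91), Prr36 (0.91) and Sidt1 (0.90), and Dnm1 encodes the neuronal dynamin of synaptic vesicle recycling. The 2 paralogs shared none of these 5 genes. With genotype also centred, these lists changed. Sez6l was then most like Ppm1e (r = 0.96), Elavl4 (0.95), Sphkap (0.94), Oxr1 (0.93) and Crtac1 (0.93). Sez6l2 was most like Tecr (0.81), Faim2 (0.80), Tcp11l2 (0.79), Ina (0.78) and Ppp1r26 (0.78). Chrm4 (0.85), Rgs9 (0.84) and Isl1 (0.82) stayed among the genes nearest to Sez6, joined by Entpd3 (0.82) and Cpne5 (0.82).

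Once each library was also centred on its genotype, the members were still correlated, with differing signs. Sez6l2 and Sez6l correlated positively over the 16 libraries of the 3g line (r = 0.85, rho = 0.81) and of the 16p11.2 line (r = 0.61, rho = 0.63). Sez6l2 and Sez6 correlated negatively (r = -0.61, rho = -0.41 in the 3g line and r = -0.38, rho = -0.33 in the 16p11.2 line), as did Sez6 and Sez6l (r = -0.72, rho = -0.55 and r = -0.84, rho = -0.73). Without the 2 libraries farthest from the median, Sez6 and Sez6l stood at r = -0.45 in the 3g line, so much of that value rests on 2 libraries, and at -0.73 in the 16p11.2 line. The same step gave 0.81 and 0.47 for Sez6l2 and Sez6l, and -0.70 and -0.37 for Sez6l2 and Sez6. In the same libraries, Sez6l was higher where the cortical marker sum was higher (r = 0.90 in the 3g and 0.84 in the 16p11.2 line) and Sez6 where the projection neuron marker sum was higher (r = 0.54 and 0.81). In the 3g line Sez6 was more strongly correlated with the oligodendrocyte (r = -0.90), astrocyte (-0.89), endothelial (0.83) and cortical (-0.72) sums, and in the 16p11.2 line these were 0.38, -0.04, -0.35 and -0.79. Sez6l2 followed the cortical sum less closely (r = 0.72 and 0.43), and other sums were as strong or stronger. For Sez6l2, r in the 3g and 16p11.2 lines was 0.73 and -0.20 with the oligodendrocyte sum. It was -0.69 and -0.39 with the projection neuron sum and -0.38 and 0.56 with the endothelial sum. For Sez6l, r was -0.75 and -0.85 with the projection neuron sum and 0.74 and -0.56 with the oligodendrocyte sum. These points share libraries and their dissection, and the part of tissue composition in the differences between genotypes was not tested.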

How the data were processed

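The deposited values were raw counts of reads per gene. Per the labels and the study's methods, the authors made stranded, ribosomal RNA-depleted RNA-seq libraries, aligned them in the bcbio-nextgen pipeline and counted genes on mm10 (submitters' notes: HTSeq), and aligned lysate RNA and footprint reads to mm39 (submitters' notes: Bowtie2). The labels also speak of polyA RNA. Library preparation and counting can move levels in all libraries of an assay alike, so comparisons stayed within an assay.

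Libraries were grouped by line, sex and genotype from the labels, in 58 libraries, and no per-sample column was left without a sample. Each comparison was fitted on all genes with edgeR 4.0.16 (limma 3.58.1, R 4.3.3): TMM factors, filterByExpr, a quasi-likelihood test and Benjamini-Hochberg adjustment, with a threshold of 0.05. Standard errors and 95% intervals came from the same fits, and every difference between sexes, lines or assays was an interaction term. Single values were also tested by a 2-sided exact permutation test of log2 CPM (prior count 2). Footprints per RNA were log2 ratios with 0.5 added to each count. Scripts were tested on simulated data. The labels do not tie RNA-seq libraries to litters, so p-values measure the spread between these libraries.

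Alternatives were DESeq2 1.42.0, RLE factors, library totals alone, testing genes unfiltered, fitting a line's sexes together, the replicate number or the animal as a block, and each library left out. Lysate RNA and footprint libraries of 1 animal share a lysate, and their deviations correlated (r = 0.07 to 0.27 over the 6 animals of the 3g line and 0.11 to 0.24 over the 7 of the 16p11.2 line). No 2 libraries agreed within sampling noise (lowest chi-square per degree of freedom 2.21). The members, gene lists and tests were chosen with earlier results of these data known. Named beside the 3 members were Taok2, Mvp, fixed proteases and partners, neighbours in rank of interval genes, and the 5 genes with the highest correlation to each member. The genes most correlated once genotype was centred are also named. Coordinates came from a RefSeq table of GRCm38.p6.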

Additional observations from a re-analysis of the deposited data

Results flagged for a closer look

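In 3 of 33 groups of 4 to 10 samples, 1 sample stood far from the others, where chance gives about 1 in 20 groups. Sez6l was at 94.8 CPM in 3g wt female 39 by RNA-seq, against 65.0 to 67.6 CPM in the other 3 of its group. The same library had the highest Sez6l2 level of that group, 306 CPM against 277 to 281 CPM, and a cortical marker sum of 797 CPM against 376 to 418 CPM, whose part was not tested. Sez6l2 was at 52.1 CPM in lysate RNA of 1 wt male of the 16p11.2 line, against 67.0 to 68.2 CPM in the other 3.

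The Sez6l2 fold change differed between the lines in 2 comparisons. In RNA-seq of females it was lower in the 16p11.2 line by 0.69 on the log2 scale (difference -0.69, adjusted p = 0.00147, edgeR). In lysate RNA of males the difference was -0.85 (adjusted p = 0.0408). The line cannot be told apart from the batch of its libraries, although each fold change was taken against wt littermates of the same line.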

How the results depend on the processing

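Over 241 settings for Sez6l2, 218 kept the direction and the side of the threshold, 11 lost a call, 7 gained one and 5 turned sign. The 11 losses all came from leaving out 1 library in the lysate RNA difference between the lines. For Sez6 16 of 241 and for Sez6l 39 of 241 settings turned sign, all of them without a call.

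Calls of Sez6l2 were gained as follows. In RNA-seq of 3g males the fold change was -0.58 by DESeq2 (adjusted p = 3.88e-05) and -0.58 with all 16 libraries of the line in 1 fit (adjusted p = 0.00305). By DESeq2 it was -0.53 in 3g lysate RNA (adjusted p = 0.00109), -0.83 in 3g footprints (adjusted p = 0.0201) and -0.99 in 16p11.2 footprints (adjusted p = 0.00285), and without a filter the last was -0.99 (adjusted p = 0.012), against -1.07 without 1 wt mouse (adjusted p = 0.0214). The cause was not tested.

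Signs turned with no call for Sez6 in 3g males without a filter (-0.0094) and, for footprints per RNA in the 3g line, with library totals alone (-0.017). They turned for Sez6l in the difference between lines in RNA-seq of males without a filter (0.012) and in footprints with RLE factors (0.012). For footprints per RNA of Sez6l in the 16p11.2 line the value was 0.041 by DESeq2, 0.046 with RLE factors, 0.0040 without a filter and 0.12 with library totals alone.

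With 1 library left out, fold changes ranged as follows. Sez6 ran from -0.10 to 0.094 in 3g males, -0.032 to 0.087 in 16p11.2 males and -0.041 to 0.22 in 16p11.2 footprints. Sez6l ran from -0.20 to 0.093 in 3g males, -0.18 to 0.15 in 16p11.2 males, -0.26 to 0.029 in 16p11.2 females and -0.11 to 0.18 in 3g lysate RNA. Taok2 ran from -0.079 to 0.024 in 3g males, Mvp from -0.21 to 0.069 in 3g lysate RNA, and Sez6l2 from -1.07 to -0.84 in 16p11.2 footprints. Footprints per RNA of Sez6l ran from -0.10 to 0.10 in the 16p11.2 line and from -0.017 to 0.19 between lines.

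The differences between sexes ran from -0.13 to 0.063 for Sez6 in the 3g line, and in the 16p11.2 line from -0.013 to 0.14 for Sez6l2 and -0.29 to 0.10 for Sez6l. Between lines they ran from -0.058 to 0.13 for Sez6 and -0.16 to 0.22 for Sez6l in RNA-seq of males, from -0.98 to -0.80 for Sez6l2 in lysate RNA, and in footprints from -0.20 to 0.16 for Sez6l and -0.22 to 0.0064 for Sez6l2.

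With the animal as a replicate block, footprints per RNA gave -0.28 for Sez6l2 in the 3g line, 0.39 in the 16p11.2 line and 0.61 between them, and 0.034 for Sez6l in the 16p11.2 line, with no change of call. The numbers of the 16p11.2 RNA-seq libraries did not pair them (r = -0.25 to 0.06 in males and 0.00 to 0.10 in females), and with that number as a replicate block Sez6l2 was at -1.24 in males and -1.19 in females, both still called. The counts of all genes called by edgeR and DESeq2 were 0 and 1 in 3g males, 1 and 113 in 3g females, 19 and 38 in RNA-seq of 16p11.2 males, 26 and 50 in the females of that line, 3 and 13 in 3g lysate RNA, 19 and 32 in 16p11.2 lysate RNA, 1 and 13 in 3g footprints, and 7 and 19 in 16p11.2 footprints. For 3g females, leaving out 1 library gave up to 175. Of the 59 genes, at most 1 was called in any setting, in 3g females only, under an alternative and with a library left out. Footprint libraries held 41 to 205 Sez6l2 counts in 3 or 4 mice per group, and both limit those comparisons.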
